A study of Mus musculus with 12 samples.

Results

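The CC chemokines and fractalkine are small secreted proteins that attract leukocytes, and 10 of their genes were followed in primary mouse chondrocytes: Ccl2, Ccl3, Ccl4, Ccl5, Ccl7, Ccl8, Ccl9, Ccl11, Ccl20 and Cx3cl1. They were found by symbol among the 57010 Ensembl gene IDs of the count tables. Chondrocytes are the cells that make cartilage matrix, and the study asks how SIRT5, a mitochondrial deacylase that removes malonyl and related groups from lysines, shapes their metabolism in osteoarthritis. There were 3 groups of 4 libraries: cells labelled Control, cells given a wild-type plasmid (WT below, read as wild-type SIRT5) and cells given a plasmid for the mutant SIRT5F101L. Every library carries the genotype label "Wild type". What the Control cells received, and the age of the mice, the promoter of the plasmids and the time after transfection, are not given in the sources used here. A difference from Control therefore covers everything in which a plasmid culture differed from a Control culture, and transfection and SIRT5 cannot be told apart in it. Replicate numbers only name libraries, and no label says that they came from separate cultures or animals, so p-values measure the spread between these libraries, which may be technical.

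CC chemokines carry neighbouring cysteines near the start of the mature protein and signal through G protein-coupled receptors of the CCR family. In cartilage and synovium they are known as products of cells exposed to interleukin-1, tumour necrosis factor or pattern-recognition signals, largely through the transcription factor NF-kB. Fractalkine, the product of Cx3cl1, has spaced cysteines, sits on a membrane-bound mucin stalk, and is shed by ADAM proteases before it reaches its receptor, CX3CR1.

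The stretch of coding sequence around the first cysteine motif is shown because it separates the CC chemokines from fractalkine. Sequences are from GENCODE M21 transcripts (build GRCm38), 5′ to 3′, with the cysteine codons in capitals. The 9 CC chemokines hold adjacent cysteine codons, and Cx3cl1 holds 3 codons between them.
Ccl7 (ENSMUSG00000035373): gcatccacaTGCTGCtatgtcaag
Ccl2 (ENSMUSG00000035385): ccactcaccTGCTGCtactcattc
Ccl8 (ENSMUSG00000009185): ccagtcaccTGCTGCtttcatgta
Ccl11 (ENSMUSG00000020676): ccaacttccTGCTGCtttatcatg
Ccl5 (ENSMUSG00000035042): accactcccTGCTGCtttgcctac
Ccl4 (ENSMUSG00000018930): cccacttccTGCTGTttctcttac
Ccl9 (ENSMUSG00000019122): tcttcagatTGCTGCctgtcctat
Ccl20 (ENSMUSG00000026166): aactacgacTGTTGCctctcgtac
Cx3cl1 (ENSMUSG00000031778): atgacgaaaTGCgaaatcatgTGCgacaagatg

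Except for Ccl20 on chromosome 1 and Cx3cl1 on chromosome 8, the members lie on chromosome 11. There the annotation lists Ccl2, Ccl7, Ccl11, Ccl12 and Ccl8 in a row, all on the plus strand, and in a separate group Ccl5, Ccl9, Ccl6, Ccl3 and Ccl4. Ccl2, beside Ccl7, and Ccl6, between Ccl9 and Ccl3, were listed at 0 in all 12 libraries.

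Libraries held 15095357 to 24242139 counts, so that 1 count was worth 0.0413 to 0.0662 CPM (counts scaled to library size). CPM values below are scaled by TMM and given as mean ± SD (n = 4). Of the 10 members, 7 passed the filter on low counts and were tested: Ccl4, Ccl5, Ccl7, Ccl8, Ccl9, Ccl20 and Cx3cl1. Ccl2, Ccl3 and Ccl11 did not. A gene was called where edgeR's quasi-likelihood test over 14253 genes gave a Benjamini-Hochberg adjusted p under 0.05. Every ID that the annotation places on the X chromosome (2414), the Y chromosome (1547) or the mitochondrial genome (37) was at 0 in all 12 libraries, as were 18.9% of autosomal protein-coding genes, so an ID at 0 is given only as listed at 0. Libraries did not all lie with their label: on the second principal component (5.66% of the variance) SIRT5F101L replicate 1 lay at -20.3, beside WT replicates 2 to 4 at -20.1 to -12.5, whereas the other SIRT5F101L libraries lay at 17.0 to 23.5. WT replicate 1, at 1.07, lay between the other WT libraries and those. Values of the tested members are given without either library where it decides them, and those of the gene lists without SIRT5F101L replicate 1 in 1 paragraph at the end.

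Sirt5 itself, the gene on the plasmids, was low in every library. Control libraries held 11, 15, 9 and 16 counts, WT libraries 9, 9, 8 and 1, and SIRT5F101L libraries 9, 19, 15 and 10. Its log2 fold change was -0.86 in WT (edgeR adjusted p = 0.143) and 0.03 in SIRT5F101L (adjusted p = 0.954), so mouse Sirt5 counts did not show the plasmids.

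Cells given the wild-type plasmid had higher mRNA of Ccl5, Ccl7, Ccl8, Ccl9 and Ccl20 than Control cells, and lower mRNA of Cx3cl1. Cells given SIRT5F101L had higher Ccl5, Ccl7, Ccl8 and Ccl20, and lower Cx3cl1. In WT versus Control, 6 of the 7 tested members were called, 5 higher and 1 lower, against 56.8% of all tested genes called, 28.7% higher and 28.1% lower. In SIRT5F101L versus Control, 5 of 7 were called, 4 higher and 1 lower, against 60.7% of all genes, 30% higher and 30.7% lower. The median log2 fold change of the 7 was 2.72 in WT and 2.51 in SIRT5F101L, beside -0.01 and -0.02 over all tested genes. These counts and medians are descriptions, since Ccl20 passed the filter only through the plasmid groups, where it was high. Ccl4 passed mainly through Control, where it was higher: 3 Control libraries, 1 WT library and 0 SIRT5F101L libraries reached the filter's level. Both comparisons use the same Control libraries. In each, the ranges of the groups did not overlap for the members called, which is 6 of 7 in WT and 5 of 7 in SIRT5F101L, against 53.5% and 51.3% of all tested genes.

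**Figure D1:**
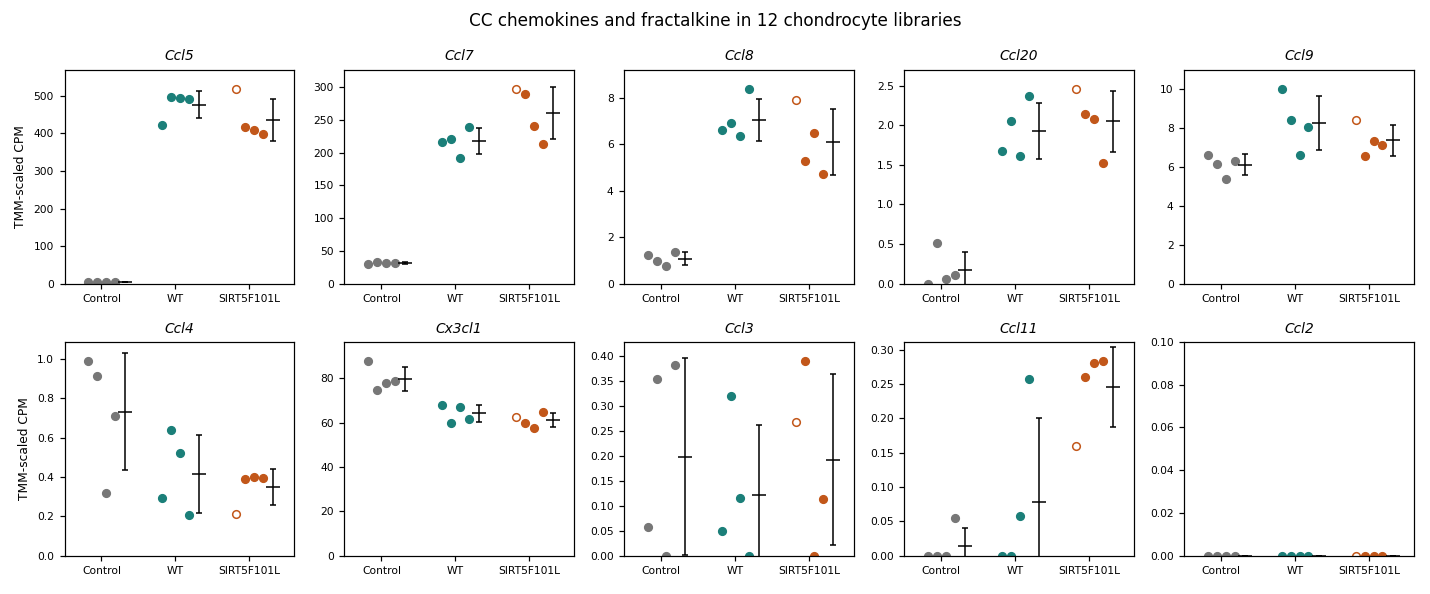
TMM-scaled CPM (vertical axes, linear, each from 0) of the 10 members in each library; points are libraries, the open circle is SIRT5F101L replicate 1, and horizontal lines with bars are means ± SD of 4 libraries, with bars that reach below 0 clipped at the axis. Ccl5, Ccl7, Ccl8 and Ccl20 are higher in all 8 plasmid libraries than in any Control library, Cx3cl1 is lower, and Ccl2 is at 0 throughout.

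Ccl5 (RANTES), a ligand of CCR1 and CCR3 that attracts T cells and monocytes, changed most. Control libraries held 3.48, 3.90, 4.68 and 3.22 CPM. WT libraries held 422, 499, 496 and 492 CPM, and SIRT5F101L libraries 518, 418, 409 and 399 CPM. The lowest plasmid library thus stood far above the highest Control library. The log2 fold change was 6.96 in WT (SE 0.12, 124-fold, edgeR adjusted p = 6.63e-20). In SIRT5F101L it was 6.83 (SE 0.12, 114-fold, adjusted p = 7.53e-20). Behind these values are 59 to 88 counts per Control library and 6445 to 10202 per plasmid library.

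Leaving aside Ccl2, listed at 0, the most abundant member per length in Control cells was Ccl7 (MCP-3), a monocyte attractant that binds CCR1, CCR2 and CCR3. It stood at 29.1, 33.0, 31.6 and 30.8 CPM in Control, at 217, 221, 191 and 240 CPM in WT, and at 297, 290, 240 and 214 CPM in SIRT5F101L. Control libraries lay within a narrow band, and every plasmid library was above it. The log2 fold change was 2.80 in WT (SE 0.10, 6.98-fold, edgeR adjusted p = 2.85e-15) and 3.06 in SIRT5F101L (SE 0.10, 8.36-fold, adjusted p = 7.48e-16).

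Ccl8 (MCP-2), which lies near Ccl7 and signals through CCR8 in mice, rose from a lower level. Its counts were 21, 19, 14 and 25 in Control, 134, 108, 110 and 163 in WT, and 148, 81, 162 and 83 in SIRT5F101L. These amount to 1.07 ± 0.274, 7.06 ± 0.906 and 6.09 ± 1.42 CPM. The log2 fold change was 2.72 in WT (SE 0.22, edgeR adjusted p = 1.33e-09) and 2.51 in SIRT5F101L (SE 0.22, adjusted p = 4.82e-09).

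Ccl20 (MIP-3 alpha), the only known chemokine ligand of CCR6 and an attractant of Th17 cells and dendritic cells, was near the counting floor in Control. Counts were 0, 10, 1 and 2 in Control, 34, 32, 28 and 46 in WT, and 46, 33, 52 and 27 in SIRT5F101L. Every plasmid library exceeded every Control library, and Control replicate 2 held 10 of the 13 Control counts. The fitted log2 fold change was 3.42 in WT (SE 0.50, edgeR adjusted p = 6.76e-06) and 3.51 in SIRT5F101L (SE 0.49, adjusted p = 4.02e-06). Without Control replicate 2 the log2 values were 4.96 and 5.06, with 0 to 2 counts left per Control library, so only the direction and a large size can be read.

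Ccl9 (MIP-1 gamma), a CCR1 ligand known from macrophages and osteoclasts, differed little. Control libraries held 6.62, 6.13, 5.37 and 6.33 CPM, WT libraries 10.01, 8.39, 6.64 and 8.07 CPM, and SIRT5F101L libraries 8.44, 6.56, 7.33 and 7.14 CPM. The lowest WT library was barely above the highest Control library, and the SIRT5F101L range reached into that of Control. The log2 fold change was 0.44 in WT (SE 0.14, edgeR adjusted p = 0.0104), and without WT replicate 1 it was 0.33 (adjusted p = 0.0575). In SIRT5F101L it was 0.27 (SE 0.14, adjusted p = 0.0978). Of the Ccl9 transcript, 5.42% has a near-identical copy elsewhere in the transcriptome, and where the counting assigned such reads is not given in the sources used here.

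Ccl4 (MIP-1 beta), made mainly by leukocytes, was low throughout and lower in plasmid cells on average. Its counts were 17, 18, 6 and 13 in Control, 6, 10, 9 and 4 in WT, and 4, 6, 10 and 7 in SIRT5F101L, and the groups overlapped. The log2 difference was -0.84 in WT (SE 0.44, edgeR adjusted p = 0.115) and -1.04 in SIRT5F101L (SE 0.45, adjusted p = 0.0516), so neither passed. Without Control replicate 3, the Control library with the fewest counts, both did, at -1.09 (adjusted p = 0.0439) and -1.29 (adjusted p = 0.0183). Ccl4 passed the filter mainly through Control libraries, where it was higher, so these values are descriptions.

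Its neighbour Ccl3 (MIP-1 alpha), also mainly a leukocyte product, was too low to test, with 1, 7, 0 and 7 counts in Control, 1, 5, 2 and 0 in WT, and 5, 6, 0 and 2 in SIRT5F101L. Summed over 4 libraries these are 15, 8 and 13 counts. No difference was detectable at this depth: the WT to Control ratio per total count was 0.575 (95% exact interval 0.211 to 1.44), which covers counting error only.

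Ccl11 (eotaxin), the CCR3 ligand that attracts eosinophils, was also below the filter. Its counts were 0, 0, 0 and 1 in Control, 0, 0, 1 and 5 in WT, and 3, 4, 7 and 5 in SIRT5F101L. The summed ratio of SIRT5F101L to Control was 19.4 (19 against 1 count, 95% exact interval 3.09 to 807). That of SIRT5F101L to WT was 3.01 (19 against 6 counts, interval 1.15 to 9.20). These intervals cover counting error only, and every value is at most 7 counts. When edgeR was run on every gene with at least 1 count, where 34.6% of genes were called in SIRT5F101L versus Control, Ccl11 had a log2 fold change of 3.64 (adjusted p = 0.0173). In the same fit it was 1.52 between SIRT5F101L and WT (adjusted p = 0.653).

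Ccl2 (MCP-1), the monocyte attractant that binds CCR2, was listed at 0 in every library. No other gene overlaps its exons in the annotation, and no part of its transcript has a near-identical copy: its closest match, Ccl7, is 71.98% identical over 257 bases. Neither a limit on its level nor a fold is given, since the 0 may not be a measurement.

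Cx3cl1, the fractalkine gene, went the other way from Ccl5 and Ccl7, by a small amount. Control libraries held 87.6, 74.6, 77.9 and 78.8 CPM. WT libraries held 67.9, 59.9, 67.2 and 61.9 CPM, and SIRT5F101L libraries 62.5, 59.7, 57.4 and 64.7 CPM. All 8 plasmid libraries were below all 4 Control libraries. It fell by 0.31 on the log2 scale in WT (SE 0.07, edgeR adjusted p = 0.000565) and by 0.38 in SIRT5F101L (SE 0.07, adjusted p = 5.90e-05).

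**Figure D2:**
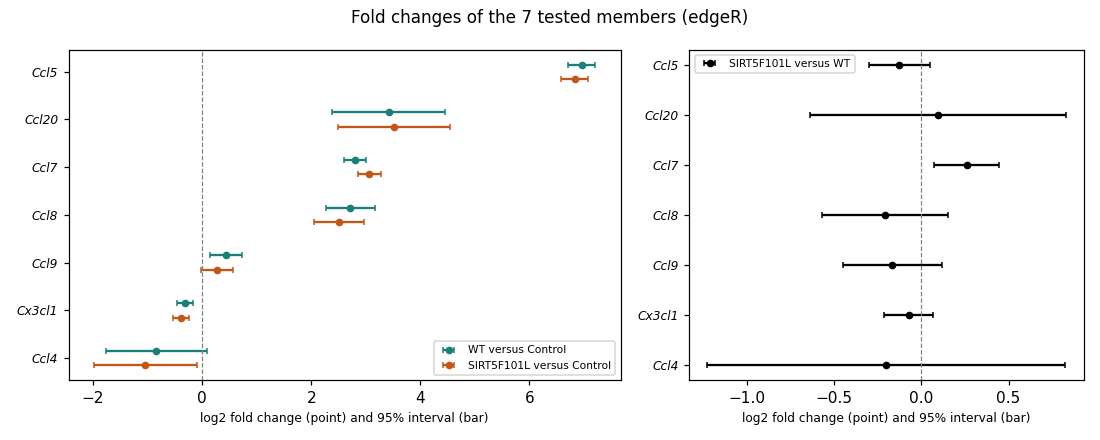
Log2 fold changes (horizontal axis; points) with unadjusted 95% intervals (bars) from edgeR for the 7 tested members, on the left for both plasmid groups against Control and on the right for SIRT5F101L against WT. On the left Ccl5 stands apart near 7 while Cx3cl1 and Ccl4 lie below 0, and on the right the interval of Ccl7 is the only one that does not reach 0.

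The mutant and the wild-type plasmid were compared directly to ask what the mutation adds. None of the 7 tested members was called, against 0.0421% of all tested genes (0.0281% higher and 0.014% lower), and for none did the groups separate, against 4.02% of all genes. At an unadjusted p under 0.05 there was 1 member, Ccl7, where 11.9% of all genes passed that level, and DESeq2 also called 0 members. Ccl7 was higher in SIRT5F101L by 0.26 on the log2 scale (95% interval 0.07 to 0.45, edgeR adjusted p = 0.360), with the mutant libraries at 214 to 297 CPM and the WT libraries at 191 to 240 CPM. Run on every gene with at least 1 count, where 1.38% of genes were called, the same log2 value of 0.26 had an adjusted p of 0.0250.

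Ccl5 was 0.13 lower on the log2 scale in SIRT5F101L (log2 fold change -0.13, 95% interval -0.30 to 0.05, edgeR adjusted p = 0.529), and 1 library decides this value. SIRT5F101L replicate 1, at 518 CPM, was the highest of all 12, while the other 3 stood at 399 to 418 CPM, below the lowest WT library at 422 CPM. Without it the log2 fold change was -0.22 (adjusted p = 0.0167), and without WT replicate 1, the lowest WT library, it was -0.18 (adjusted p = 0.321). Leaving out SIRT5F101L replicate 1 changes the comparison as a whole: 15.2% of genes are then called and 24.8% separate the groups.

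For the other members the unadjusted 95% intervals of the log2 difference between the plasmids cover only the spread between these libraries. They ran from -0.22 to 0.07 for Cx3cl1 (adjusted p = 0.670), from -0.45 to 0.12 for Ccl9 (adjusted p = 0.609) and from -0.57 to 0.15 for Ccl8 (adjusted p = 0.623). For Ccl20 and Ccl4, with few counts, they ran from -0.64 to 0.83 (adjusted p = 0.940) and from -1.23 to 0.82 (adjusted p = 0.894). The intervals of Ccl8, Ccl9, Ccl20 and Ccl4 thus include falls as large as that of Cx3cl1 from Control. These intervals are from the fit of 12 libraries: without SIRT5F101L replicate 1 the log2 value of Ccl8 went from -0.21 to -0.35 (adjusted p = 0.192), and without WT replicate 3 that of Ccl9 went from -0.17 to -0.26 (adjusted p = 0.591). Without WT replicate 1 it was -0.06 (adjusted p = 0.875).

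Levels of different genes were compared only per length, as CPM per kilobase of the longest complete protein-coding transcript. In Control cells the order was Ccl7 (38.9 ± 2.02 CPM per kb), Cx3cl1 (24.1 ± 1.68) and Ccl5 (7.18 ± 1.20), each apart from the next by more than their SDs. Ccl8 (2.10 ± 0.537) and Ccl9 (2.03 ± 0.177) did not differ beyond their spread. Ccl4 (1.11 ± 0.453) came next, and Ccl3, Ccl20 and Ccl11 were below 0.5 CPM per kb.

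In WT cells Ccl5 came first (897 ± 69.1 CPM per kb), followed by Ccl7 (271 ± 24.7), Cx3cl1 (19.4 ± 1.18), Ccl8 (13.8 ± 1.77), Ccl9 (2.75 ± 0.460) and Ccl20 (1.36 ± 0.247). SIRT5F101L cells had the same order, from Ccl5 (820 ± 104) and Ccl7 (325 ± 50.1) through Cx3cl1 (18.4 ± 0.967) and Ccl8 (11.9 ± 2.79) to Ccl9 (2.45 ± 0.262) and Ccl20 (1.45 ± 0.272). The total over the 10 members was 75.7 ± 1.04 CPM per kb in Control, 1206 ± 73.2 in WT and 1180.0 ± 147 in SIRT5F101L. Ccl2 is left out of the orders and enters the totals, and the shares below, as 0, which may not be a measurement.

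The make-up of this chemokine mRNA moved from Ccl7 and Cx3cl1 to Ccl5. Per length, Ccl7 made up 51.3 ± 2.24% of the total in Control, Cx3cl1 31.8 ± 2.43% and Ccl5 9.48 ± 1.56%. In WT, Ccl5 made up 74.3 ± 2.25%, Ccl7 22.5 ± 2.08% and Cx3cl1 1.62 ± 0.192%. In SIRT5F101L, Ccl5 made up 69.5 ± 2.10%, Ccl7 27.5 ± 2.23% and Cx3cl1 1.58 ± 0.207%. Shares are tied to each other: the level of Cx3cl1 per length went only from 24.1 CPM per kb to 19.4 in WT and 18.4 in SIRT5F101L.

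**Figure D3:**
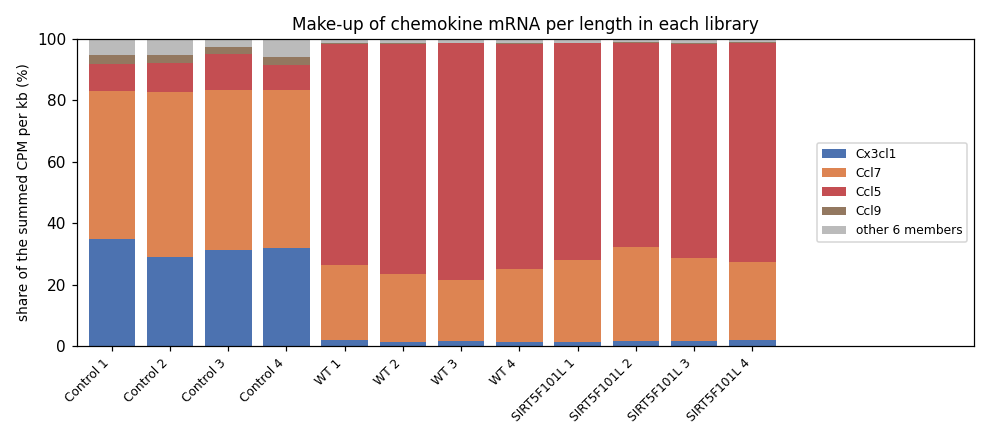
Share of the summed CPM per kb (vertical axis, in percent, from 0 to 100) that each member holds in each of the 12 libraries (bars, by group and replicate). Ccl2 enters as 0. Ccl7 and Cx3cl1 make up most of each Control bar, and Ccl5 makes up 66.5% to 77.1% of every plasmid bar.

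Promoters of 250 bases before to 50 bases after the RefSeq start (build GRCm38.p6) were found for 5 of the 10 members: Ccl3, Ccl8, Ccl9, Ccl20 and Cx3cl1. The following 4 are shown because their genes cover a large rise, a small rise and a fall, 5′ to 3′ on the gene's strand. Capitals mark matches to the kappaB site of NF-kB (given by name, as its consensus holds mixed bases) or to the AP-1 site TGANTCA, both strands searched.
Ccl20, chr1:83116516-83116815, plus strand: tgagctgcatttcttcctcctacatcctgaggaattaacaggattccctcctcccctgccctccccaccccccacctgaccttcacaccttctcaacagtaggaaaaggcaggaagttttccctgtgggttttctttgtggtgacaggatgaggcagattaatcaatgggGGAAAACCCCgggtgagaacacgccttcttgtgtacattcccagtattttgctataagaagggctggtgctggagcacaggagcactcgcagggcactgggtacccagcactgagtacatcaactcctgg
Ccl9, chr11:83578587-83578886, minus strand: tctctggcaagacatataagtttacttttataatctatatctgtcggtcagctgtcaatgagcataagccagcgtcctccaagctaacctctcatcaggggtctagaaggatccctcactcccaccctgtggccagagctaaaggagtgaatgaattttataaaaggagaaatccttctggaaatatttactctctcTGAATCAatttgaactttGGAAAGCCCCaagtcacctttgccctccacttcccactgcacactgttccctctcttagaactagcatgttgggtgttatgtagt
Ccl8, chr11:82114935-82115234, plus strand: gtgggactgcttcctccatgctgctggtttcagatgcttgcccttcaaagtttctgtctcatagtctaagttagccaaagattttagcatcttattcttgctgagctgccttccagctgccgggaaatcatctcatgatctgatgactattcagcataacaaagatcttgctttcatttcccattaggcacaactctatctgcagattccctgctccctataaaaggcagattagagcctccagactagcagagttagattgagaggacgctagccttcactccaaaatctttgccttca
Cx3cl1, chr8:94771930-94772229, plus strand: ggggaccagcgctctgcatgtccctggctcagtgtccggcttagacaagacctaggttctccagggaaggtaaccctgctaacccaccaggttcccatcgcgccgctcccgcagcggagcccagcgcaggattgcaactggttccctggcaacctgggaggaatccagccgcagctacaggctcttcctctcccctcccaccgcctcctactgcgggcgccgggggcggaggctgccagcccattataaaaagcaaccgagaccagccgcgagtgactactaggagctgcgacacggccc

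The kappaB match lay in 2 of the 5 promoters, starting 80 bases before the start of Ccl20 and 35 before that of Ccl9, in both on the reverse strand. It is found in 8.46% of the 32851 promoters of the table. The AP-1 match lay in Ccl9 only, 53 bases before the start, and is found in 7.81% of all promoters. The interferon-response core was in none of the 5 and in 3.44% of all. Ccl20 rose strongly and Ccl9 barely, both with a kappaB match, and Ccl8 rose 6.58-fold in WT without one in this window. A match is a run of letters, and no match says only that these letters are not in these 300 bases.

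The genes whose profile over the 12 libraries was most like a member's were found by the root mean square difference of log2 CPM, centred on Control, over genes whose mean reached 5 CPM. For Ccl5 they were Cxcl3, a CXC chemokine (0.26), and Oasl1, an interferon-induced gene (0.27). For Ccl7 they were Spp1, which codes for osteopontin (0.13), and Zbp1, a sensor of nucleic acids (0.17). For Ccl8 they were Pkn3 (0.21) and Hmga1b (0.23), for Ccl9 Rassf1 and Ccdc77 (both 0.12), and for Cx3cl1 Galnt2 and Mfsd11 (both 0.05). For the low members the nearest were Prkcb (0.40) and Tnfsf18 (0.42) for Ccl20, and Cobl and Klhl36 (both 0.37) for Ccl4. Counting noise at low counts adds to these distances, so they do not show how distinct the profiles are.

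The filter asked for a minimum level in 4 libraries, and some list genes reached it only through the groups where they were high, so that the tallies below are descriptions. Ccr1, Ackr2, S100a8 and Ly6g passed only with the plasmid libraries, and Cd52 only with the Control libraries. Cx3cr1, Dpp4 and Ptprc reached the level in all 4 Control libraries and in 2 or 3 libraries of each plasmid group.

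Among the 12 other CC chemokines of the list, 2 passed the filter and moved in opposite directions. Ccl25, known from thymus and gut epithelium, rose from 10.5 ± 1.32 CPM in Control to 15.6 ± 1.24 in WT (log2 fold change 0.56, edgeR adjusted p = 0.000107) and 18.2 ± 0.915 in SIRT5F101L (0.79, adjusted p = 1.51e-06). Ccl27a, known from skin, fell by 0.92 in WT and by 1.12 in SIRT5F101L on the log2 scale (adjusted p = 0.000416 and 5.48e-05). Of the rest, Ccl6, Ccl19, Ccl21a and Ccl26 were listed at 0 in all 12 libraries.

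Of 11 receptors of CC chemokines and fractalkine, 3 were tested; in both comparisons with Control 1 rose and 2 fell, where 56.8% (WT) and 60.7% (SIRT5F101L) of all tested genes were called. Ccr1, which binds Ccl5, Ccl7 and Ccl9, rose from 0.535 ± 0.163 CPM to 4.05 ± 0.394 in WT (log2 fold change 2.89, edgeR adjusted p = 3.05e-09) and 4.25 ± 0.717 in SIRT5F101L (2.97, adjusted p = 1.74e-09). Cx3cr1, the fractalkine receptor and a marker of resident macrophages, was at 3.91 ± 1.02 CPM in Control and fell by 2.53 and 2.73 (adjusted p = 4.17e-07 and 1.66e-07). Ccr8 and Ccr10 were listed at 0.

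Receptor genes are mostly leukocyte genes, and markers of leukocytes moved with them. All 5 pan-leukocyte markers fell in both comparisons, where 28.1% and 30.7% of all tested genes fell. Their summed level was 24.3 to 28.1 CPM in Control, 6.78 to 8.04 in WT and 5.55 to 8.74 in SIRT5F101L. Laptm5, Tyrobp and Coro1a fell by 1.83, 2.08 and 1.70 on the log2 scale in WT and by 1.71, 2.38 and 1.61 in SIRT5F101L. Of 7 macrophage markers, 5 were tested and fell in both (against the same 28.1% and 30.7%), with sums of 155 to 187, 81.9 to 95.1 and 83.0 to 105 CPM. Lyz2, Adgre1 and Csf1r fell by 1.05, 2.03 and 0.92 in WT and by 1.03, 1.89 and 0.72 in SIRT5F101L. The defining marker Itgam was listed at 0. Aif1 was below the filter and did not follow the fall, with 9, 3 and 19 counts summed over Control, WT and SIRT5F101L. Cx3cr1 and Ctss fell alongside these lists, and Ccr1 rose while they fell. The part of leukocytes in the receptor values and in Ccl3 and Ccl4 was not tested. In bulk RNA, fewer cells of a type and less RNA per cell cannot be told apart.

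Of 5 neutrophil markers, 2 were tested and both rose, where 28.7% and 30% of all tested genes rose. S100a8 rose from 0.385 ± 0.161 CPM to 48.6 ± 6.65 in WT (log2 fold change 6.93, edgeR adjusted p = 4.97e-15) and 57.3 ± 15.9 in SIRT5F101L (7.17, adjusted p = 2.36e-15), and Ly6g rose from 0 to 2 counts per library to 6 to 17. Csf3r, with 3, 1 and 5 counts summed over Control, WT and SIRT5F101L, and Mpo, with 17, 13 and 24, were below the filter, and S100a9 was listed at 0. T cell and B cell markers were below the filter (0 of 4 and 0 of 3 tested), with Cd3e, Cd3g and Ms4a1 at 0 in all 12 libraries. None of the 4 endothelial markers was called against Control, with log2 values of -0.64 for Pecam1, 0.57 for Kdr and -0.65 for Cdh5 in WT (edgeR adjusted p = 0.101, 0.161 and 0.305). All 8 chondrocyte markers were tested, and Col2a1, the main cartilage collagen, stood at 6712 ± 690.5 CPM in Control. Their sum was 7987 to 9998 CPM in Control, 2248 to 2400 in WT and 1788 to 2009 in SIRT5F101L. In WT, 2 of the 8 were higher and 6 lower, and in SIRT5F101L 1 was higher and 6 lower, against 56.8% and 60.7% of all tested genes called. The matrix genes Comp, Col9a1 and Col11a2 fell, with log2 fold changes of -3.26, -3.25 and -2.73 in WT and -3.43, -3.80 and -3.36 in SIRT5F101L. The genes that were higher in WT were Acan (log2 fold change 0.47, adjusted p = 1.78e-05) and Hapln1 (0.25, adjusted p = 0.00432), of which Hapln1 was also called in SIRT5F101L (0.18, adjusted p = 0.0329). Col11a2 was lower in SIRT5F101L than in WT (log2 fold change -0.63, adjusted p = 0.0339), the only call between the plasmids in any list when all 12 libraries were fitted. Without SIRT5F101L replicate 1 it was -0.62 (adjusted p = 9.22e-05), and more list genes were called, as given at the end.

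**Figure D4:**
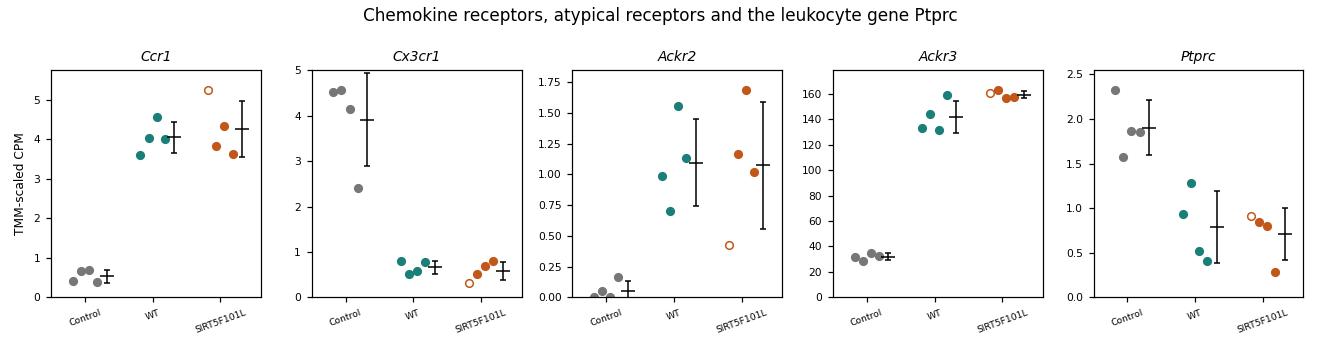
TMM-scaled CPM (vertical axes, linear, each from 0) of Ccr1, Cx3cr1, Ackr2, Ackr3 and the leukocyte gene Ptprc in each library; points are libraries, the open circle is SIRT5F101L replicate 1, and lines with bars are means ± SD of 4 libraries. Ccr1, Ackr2 and Ackr3 are higher in all 8 plasmid libraries than in any Control library, and Cx3cr1 and Ptprc are lower.

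Atypical receptors bind chemokines without classical signalling and remove them. Of 5 in the list 3 were tested, and 2 rose, where 28.7% and 30% of all tested genes rose. Ackr2, the scavenger of inflammatory CC chemokines, had 0, 1, 0 and 3 counts in Control, 20, 11, 27 and 22 in WT, and 8, 18, 42 and 18 in SIRT5F101L. Its log2 fold change was 4.19 and 4.18 (edgeR adjusted p = 2.35e-05 and 2.11e-05). Ackr3, which binds CXC rather than CC chemokines, rose from 32.0 ± 2.62 CPM to 142 ± 12.6 in WT (2.15, adjusted p = 1.69e-15) and 159 ± 2.91 in SIRT5F101L (2.32, adjusted p = 5.01e-16). Ccrl2 was not called.

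Proteases that cut chemokines moved in both directions. Adam10, the sheddase of fractalkine in resting cells, rose by 0.38 in WT and 0.35 in SIRT5F101L on the log2 scale (edgeR adjusted p = 6.12e-06 and 1.43e-05). Adam17, which sheds it on stimulation, was called in SIRT5F101L only (0.17, adjusted p = 0.0143; 0.05 and adjusted p = 0.483 in WT), and the difference between the plasmids was not called (adjusted p = 0.414). Mmp2, which truncates Ccl7, fell by 1.17 in WT and 0.96 in SIRT5F101L. Dpp4, which clips the first residues of Ccl5 and Ccl11, fell by 2.94 and 2.46, and cathepsin S (Ctss) fell by 1.58 and 1.68. Mmp9 was not tested.

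Proteoglycans hold chemokines at the cell surface and in matrix through heparan sulfate chains. Of 8 in the list 7 were tested, and in both comparisons 4 rose and 2 fell, against 56.8% and 60.7% of all tested genes called in either direction. Gpc1 rose by 1.19 in WT and 1.20 in SIRT5F101L, and Sdc4 by 1.01 and 0.96, whereas Sdc2 fell by 1.39 and 1.35 on the log2 scale. Gpc4 was listed at 0.

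NF-kB is the factor best known for driving Ccl2, Ccl5 and Ccl20. Of 14 genes for its subunits, inhibitors and kinases, all tested, 10 rose, 1 fell and 3 were not called, in both comparisons with Control, where 28.7% (WT) and 30% (SIRT5F101L) of all tested genes rose. Nfkbiz, an inducible nuclear co-regulator, rose by 2.65 in WT and 2.81 in SIRT5F101L on the log2 scale. Bcl3 rose by 1.63 in each, and the feedback inhibitor Tnfaip3 by 1.82 and 1.85. The gene that fell was Rel, by 0.71 and 0.34. Rises in the list include both activators and inhibitors.

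Interferon regulatory factors and STATs, some of which act on Ccl5 together with NF-kB, moved in both directions: of 10 genes 9 were tested, and 4 rose and 3 fell in both comparisons, against 56.8% and 60.7% of all tested genes called. Irf7 rose by 1.65 in WT and 1.65 in SIRT5F101L on the log2 scale, and Stat2 by 0.55 and 0.48. Of the 8 genes of interleukin-1, tumour necrosis factor and related cytokines and receptors, 3 were tested. Il6 rose by 5.50 and 5.82 (edgeR adjusted p = 3.03e-19 and 1.12e-19), and Il1r1 fell by 0.65 and 0.43. Tnfrsf1a had values of 0.01 (adjusted p = 0.917) and -0.12 (adjusted p = 0.0776). Tnf itself was below the filter, with 17, 16, 19 and 6 counts in Control, 0, 1, 5 and 0 in WT, and 1, 2, 5 and 0 in SIRT5F101L. Il17a and Ifng were listed at 0.

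The gene lists were also fitted without SIRT5F101L replicate 1, an alternative chosen after seeing the data. Of the 70 list genes tested, 13 were then called between the plasmids, 7 higher and 6 lower in SIRT5F101L, against 1 with all libraries. Over all genes 15.2% were called in that fit. Il6 was higher in SIRT5F101L than in WT by 0.33 on the log2 scale (edgeR adjusted p = 0.00141), Mmp2 by 0.25 (adjusted p = 0.00673), Nfkbiz by 0.23 (adjusted p = 0.0235) and Rel by 0.48 (adjusted p = 0.00556). Col2a1 was lower, with a log2 fold change of -0.36 (adjusted p = 0.00108), and so was Col9a1, with -0.63 (adjusted p = 0.000274). Against Control, 55 of the 57 genes called with all libraries were called again, 2 were lost and 4 were added. Rel was one of those lost (-0.23, adjusted p = 0.0732).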

How the data were processed

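The deposited files hold whole-number counts per Ensembl gene ID for 12 libraries, made by the authors. Per the submitters' processing notes, tools were FastQC 0.11.9, HISAT2 2.2.1, HTSeq 2.0.2 and DESeq2 1.38.3, with builds GRCm39 and mm39. The annotation and strand setting are not given in the sources used here. Symbols came from a supplied table of Ensembl names. From the counts, edgeR 4.0.16 (R 4.3.3) was run over all 12 libraries with TMM scaling, its filter by group (minimum count 10), and 9 residual degrees of freedom, with 2-sided tests and adjustment over 14253 genes. The SE is the log2 fold change divided by the square root of F. Libraries differed beyond sampling noise within groups (2.55 to 8.92 times). Transcript lengths and copies are from GENCODE M21 (GRCm38), another build than the authors' files. Coordinates are given only for the promoters, in the build of their RefSeq table. Code was tested on simulated data.

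The members and gene lists were chosen with earlier results of these data known. Genes named are Sirt5, the members, for each list mainly the 3 with the lowest adjusted p in WT versus Control and any called between the plasmids, and the 2 nearest profiles per member. Other list genes named for their known role, and Tnf, Acan, Hapln1 and Heatr9, were chosen after their values were seen. Alternatives were RLE and upper-quartile scaling, other filters (1 count in any library, or 1 CPM on average), a robust dispersion prior, a fit to the 8 libraries compared, DESeq2 1.42.0, and leaving out each library. A few list genes and some sequences are not reported here.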

Additional observations from a re-analysis of the deposited data

Results flagged for a closer look

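Dixon's criterion was applied to 10 measures in each group, 30 sets of 4 libraries, and marked 4 of them, where chance marks about 1 set in 20. For Ccl5, WT replicate 1 lay at 422 CPM (the others at 492 to 499), and SIRT5F101L replicate 1 at 518 CPM (the others at 399 to 418). Ccl4 in SIRT5F101L replicate 1 lay at 0.214 CPM, which is 4 counts (the others at 0.390 to 0.401). The summed chondrocyte markers of Control replicate 2 lay at 7987 CPM (the others at 9701 to 9998). SIRT5F101L replicate 1 is the library that lay beside WT on the second principal component (-20.3). WT replicate 1 lay there at 1.07, apart from the other WT libraries at -20.1 to -12.5. The part of these positions in the chemokine values was not tested.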

How the results depend on the processing

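Against Control, the number of members called stayed at 5 to 7 in WT and 5 to 6 in SIRT5F101L under every alternative that was run. Between the plasmids it was 0, and 1 in both of these: with every gene of at least 1 count (Ccl7 higher) and without SIRT5F101L replicate 1 (Ccl5 lower); leaving out each library in turn gave 0 to 1. The sign of the log2 difference between the plasmids turned for Ccl4 without WT replicate 2 and for Ccl20 without SIRT5F101L replicate 1; leaving out each library in turn gave -0.43 to 0.0622 for Ccl4 and -0.0031 to 0.21 for Ccl20. Ccl4 in SIRT5F101L versus Control was also called with upper-quartile scaling (-1.09, adjusted p = 0.0428). The causes were not tested. The filter on a mean of 1 CPM left 6 members, without Ccl4. No paired analysis was possible because the labels give no replicate numbers; the numbers used here were assigned only to name libraries. Depth limits Ccl3 and Ccl11, at 0 to 7 counts, and the Control values of Ccl20.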

Other observations

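Genes beside Ccl5 on chromosome 11 were looked at after the values were seen. Heatr9, the gene next to Ccl5 on the same strand, had 0 counts in all 4 Control libraries, 44, 13, 30 and 33 in WT, and 33, 23, 27 and 31 in SIRT5F101L. Wfdc17, beyond Ccl4, had 8, 8, 16 and 11 counts in Control, 15, 21, 31 and 36 in WT, and 45, 30, 49 and 30 in SIRT5F101L. On the other side of Ccl9, the transcript E230016K23Rik had 79 to 109 counts in Control, 21 to 28 in WT and 21 to 39 in SIRT5F101L. In the Ccl7 group, Ccl12 was at 2 to 6, 1 to 9 and 3 to 12 counts. No test of these values is given.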
